A study of Rattus norvegicus with 20 samples.

Results

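The genes described here are 9 components and receptors of the complement system, C1qa, C1qb, C1qc, C1r, C1s, C2, C3, C3ar1 and C5ar1, measured by RNA-seq in white matter and spinal cord of injured rats. They were taken by gene name from a table of 30443 gene entries, and all 9 were among the 15210 entries that reached 1 FPKM (fragments counted per unit of transcript length and of sequencing depth, so that genes of different length can be compared) in at least 1 library. Only C2 had a repeated name, and its entry with the higher mean was used (ENSRNOG00000051235, mean 13.1 FPKM; the other entry, ENSRNOG00000051158, had a mean of 4.77 FPKM). Reads can be split between near-identical or overlapping entries, so the level of C2 is less certain than the others.

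The tissue came from 4 adult female Long-Evans rats, wild type and about 6 to 8 months old, each of which had received a hemicontusion of the cervical cord at C4 with a displacement of 0.7 mm. All 4 animals, the controls included, also carried an electrode array in the contralesional motor cortex, with wire tips that penetrated the cortex. It was implanted through a craniotomy 2 weeks after the injury, with dexamethasone given beforehand. All animals were perfused with phosphate-buffered saline at the end. In 2 animals the array was used for 1 week of stimulation (5 hours a day at 10 Hz, with 5 minutes on and 2 minutes off, at 80% of the movement threshold), and in the 2 control animals no current was given. Each animal gave 5 libraries. Region 1 was a 5 mm3 block of subcortical white matter under the implant, region 2 the same block of the opposite hemisphere, region 3 the cord rostral to the lesion (about C2 to C4), region 4 the lesion, and region 5 the cord caudal to it, at about C4 to C6 by the labels (the methods place it 1 segment lower). No uninjured or unimplanted animal was analysed here, so every level is that of an injured, implanted rat.

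Complement is a cascade of proteins that tags and lyses targets and recruits phagocytes. In its classical pathway C1q, with the proteases C1r and C1s, cleaves C2 and C4, and the resulting convertase cleaves C3, the step at which the classical, lectin and alternative pathways meet. Fragments of C3 and C5 act on the receptors encoded by C3ar1 and C5ar1, and in the nervous system C1q, made mostly by microglia, is known for marking synapses and debris for removal.

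The promoters of C1qa, C1qb and C3 are shown because C1qa and C1qb were the most alike of the 9 genes across the libraries and C3 was the least like the rest. Each is the 250 bases before the annotated start in RefSeq (GRCr8, a later build than the Rnor6 of the deposited values), read 5′ to 3′ on the strand of the gene. An entry was matched for 5 of the 9 genes: C1qa at chr5:154419934-154420183, C1qb at chr5:154407828-154408077 and C3 at chr9:2201340-2201589, all on the minus strand, and also C1r and C3ar1. Capitals mark the matches to the motifs given after the sequences.
C1qa: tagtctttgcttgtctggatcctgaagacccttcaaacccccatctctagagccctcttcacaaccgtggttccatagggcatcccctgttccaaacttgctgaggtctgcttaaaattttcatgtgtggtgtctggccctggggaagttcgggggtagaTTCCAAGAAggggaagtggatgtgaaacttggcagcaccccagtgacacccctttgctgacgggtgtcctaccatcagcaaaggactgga
C1qb: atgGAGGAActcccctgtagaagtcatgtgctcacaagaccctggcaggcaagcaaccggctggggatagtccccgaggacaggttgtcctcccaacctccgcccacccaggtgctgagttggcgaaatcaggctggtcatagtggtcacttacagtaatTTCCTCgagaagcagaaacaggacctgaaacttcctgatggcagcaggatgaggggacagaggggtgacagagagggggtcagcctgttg
C3: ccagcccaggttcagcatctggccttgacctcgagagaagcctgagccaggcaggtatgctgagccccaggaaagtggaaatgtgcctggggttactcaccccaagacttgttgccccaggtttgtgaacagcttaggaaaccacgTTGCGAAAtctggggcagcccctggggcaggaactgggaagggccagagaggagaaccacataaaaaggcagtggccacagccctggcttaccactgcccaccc
Both strands were searched for PU.1 (GAGGAA, found in 23.3% of all 33469 promoters of this length), C/EBP (TTGCNNAA, 9.22%), STAT (TTCNNNGAA, 7.67%), AP-1 (TGANTCA, 6.34%), NF-kB (4.36%), ISRE (3.41%), TATAAA (12.9%) and CCAAT (34.0%). The C1qa window held 1 STAT match, 90 to 82 bases before the start. The C1qb window held 2 PU.1 matches, 247 to 242 and 90 to 85 bases before the start, and C3 held 1 C/EBP match at 104 to 97. C1r had PU.1 and C/EBP matches and C3ar1 had AP-1 and NF-kB matches, so no motif was shared by all 5. These are matches of letters only. In the RefSeq gene order C1qb, C1qc and C1qa lie side by side, as do C1r and C1s, next to C1rl.

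As a check of the tissue, oligodendrocyte markers were present in all 20 libraries but lower in the white matter blocks (summed FPKM 721 to 2982) than in the cord (7537 to 10957), and neuronal markers were at 995 to 1762 in the white matter and 952 to 1648 in the cord. Single neuronal markers went both ways, with a mean Syt1 of 267 FPKM in white matter and 26.4 FPKM in cord, and a mean Nefl of 122 and 437 FPKM, so the blocks labelled white matter also held neuronal transcripts. In these bulk samples, fewer cells of a type and less RNA per cell cannot be told apart. The read depth behind a single FPKM value is not recoverable from the table, and stimulated animal 2 stood apart in white matter, where all 9 genes exceeded the other 3 animals in both regions. Of all tested genes, 24.2% did so in region 1, 43.9% in region 2 and 45.4% in region 5, so that count alone singles out no library. The distance was largest in region 2, where every one of the 9 genes was at least 5.93 times the median of the other animals, a fold that 3.49% of all genes reached. That library is called the odd library here, and results that rest on it are given with and without it. Its name rests on the values of these same 9 genes, and over all genes the median fold there was 1.05. Calls gained by leaving it out are therefore no separate support for the 9 genes.

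C1qa had the highest mean of the 9 genes in every region, and C1qb the next in regions 2 to 5. C1qa, the A chain of C1q, was at 289 and 147 FPKM in the lesion of control animals 1 and 2 and at 272 and 108 FPKM in the lesion of stimulated animals 1 and 2, a mean of 204 ± 89.9 (SD, n = 4) that lay above 99.3% of genes in that region. In region 3 C1qa was at 74.3 and 40.2 FPKM in the controls and 80.6 and 50.1 FPKM in the stimulated animals, and in region 5 at 123 and 87.5 against 129 and 116 FPKM. Regions 4 and 3 did not overlap, while stimulated animal 2 put region 4 within the range of region 5. Under the implant, in region 1, C1qa was at 108 and 63.4 FPKM in the controls and at 137 and 233 FPKM in the stimulated animals. In region 2 it was at 28.3, 18.6 and 29.6 FPKM in 3 animals and at 266 FPKM in stimulated animal 2. That library held more C1qa than any other white matter library, and the other 3 held less than every cord library.

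C1qb and C1qc, the B and C chains, followed C1qa. C1qb ranged from 9.63 to 174 FPKM over the 20 libraries, with its lowest value in region 2 of control animal 2 and its highest in region 2 of stimulated animal 2. C1qc ranged from 6.55 to 168 FPKM, and its share of the summed C1q FPKM was 18.9 to 30.4% in white matter against 15.7 to 19.2% in the cord. C1qc stood at 0.680 to 1.10 times C1qb in the 8 libraries of white matter, and at 0.484 to 0.665 times C1qb in the 12 of the cord, so the 2 tissues did not overlap in this ratio.

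The proteases of the C1 complex were below the C1q genes in every library. C1s was at 14.9 and 11.3 FPKM in the lesion of the controls and 11.2 and 7.86 FPKM in that of the stimulated animals, and in region 2 it was at 1.90, 1.14, 1.09 and 9.88 FPKM in the same order. C1r, the protease that activates C1s, ranged from 2.54 to 19.4 FPKM. C1r was always above C1s in white matter (ratio 1.48 to 2.40) and close to it in the cord (0.965 to 1.24), again without overlap between the tissues. C1r and C1s lie side by side, and whether counting used the strand is not given in the sources used here.

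C2, which supplies the protease part of the classical convertase, was at 36.9 and 20.1 FPKM in the lesion of the controls and 24.3 and 12.2 FPKM in that of the stimulated animals. Rostral to the lesion it was at 7.04, 4.04, 5.25 and 4.65 FPKM in the same order, below every lesion value. In region 2 C2 was at 2.74, 1.41, 2.01 and 35.6 FPKM, so the odd library reached the level of the highest lesion.

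C3, the common substrate of the 3 pathways, varied most of the 9, from 1.72 to 182 FPKM, and its SD on the log2 scale was larger than that of 96.8% of tested genes. In region 1 C3 was at 17.8 and 7.30 FPKM in the controls and 18.3 and 99.4 FPKM in the stimulated animals, and in region 2 at 2.99, 1.72, 4.48 and 182 FPKM in the same order. Both high values were from stimulated animal 2. The 4 lesion libraries held 39.3, 21.6, 51.1 and 33.0 FPKM and region 5 held 36.4, 21.2, 40.3 and 35.7 FPKM, so the lesion held 0.92 to 1.27 times the C3 of the caudal cord of the same animal. The ratio of C3 to C1qa was 0.0927 to 0.164 in the 6 white matter libraries of the other animals, 0.428 and 0.685 in regions 1 and 2 of stimulated animal 2, and 0.136 to 0.401 in the cord.

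The receptors were the least abundant. C3ar1, the receptor of the C3a fragment, ranged from 0.451 to 5.37 FPKM and lay above 15.2 to 36.9% of tested genes in the region means. C5ar1, the C5a receptor of myeloid cells, was at 2.65, 2.03, 1.77 and 1.10 FPKM in the lesion and at 1.01, 0.926, 1.52 and 7.47 FPKM in region 1, in the order control animals 1 and 2, stimulated animals 1 and 2. Its highest value was thus under the implant of stimulated animal 2. In region 2 of control animal 2 C5ar1 was at 0.1 FPKM, the level to which the authors raised all lower values, so folds against that library are not exact.

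**Figure D1:**
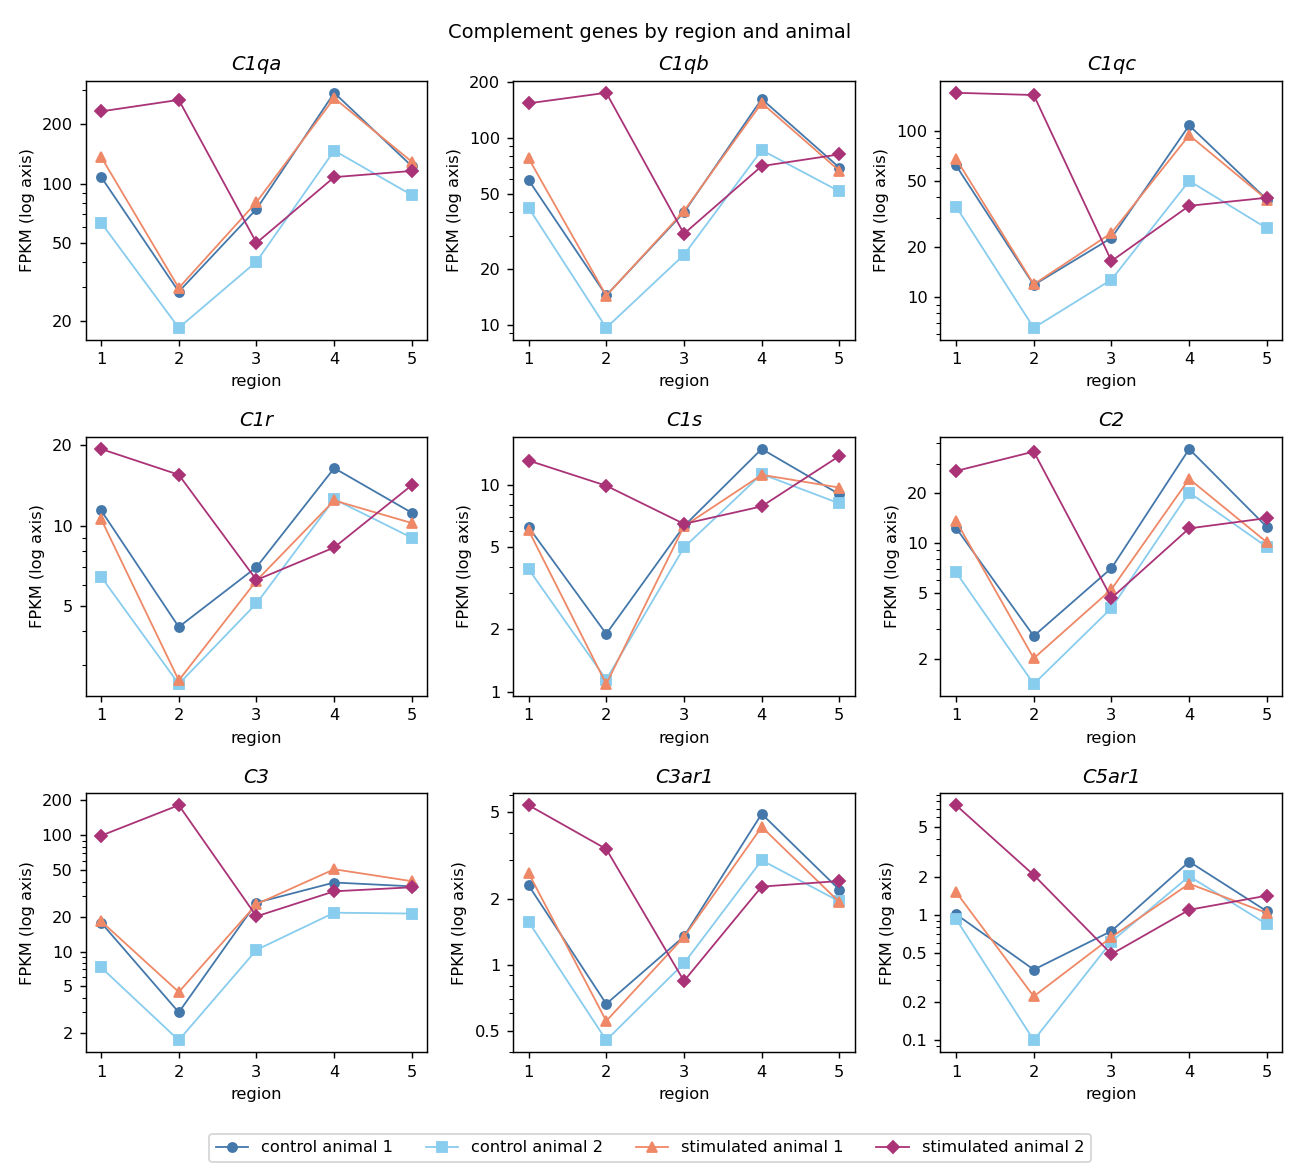
Level of each of the 9 genes (FPKM, log axis) in regions 1 to 5, with 1 line for each animal. In 3 animals every gene peaks in region 4 and is lowest in region 2, whereas stimulated animal 2 is lowest in region 3.

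The order of the regions was the same for all 9 genes in 3 of the 4 animals at its ends: highest in the lesion and lowest in region 2. Between these, region 3 was below region 5 in every animal for every gene, and the place of region 1 differed between genes, below region 3 for C1s and C3 and above it for the other 7. In stimulated animal 2 all 9 genes were lowest in region 3, 4 were highest in region 1, 4 in region 2 and 1 (C1s) in region 5. Relative to the median of the other 3 animals, this animal was 5.93 to 60.8 times as high in region 2, 1.83 to 7.39 times as high in region 1, and 0.377 to 0.840 times as high in the lesion.

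The lesion was compared with the rostral cord to ask how the injury site differed from cord of the same animals away from it. Within animals, the lesion value exceeded that of region 3 in 36 of 36 pairs of values, by 1.22 to 5.24 times, and 24.1% of all tested genes were higher in all 4 animals. Lesion values of 8 of the 9 genes did not overlap those of region 3, the exception being C3, and 13% of all tested genes were higher in this way. In the limma fit of all 20 libraries, 2 of the 9 genes rose in the lesion at an adjusted p under 0.05, C2 with a log2 fold change of 2.08 ± 0.69 (SE; adjusted p = 0.0417) and C3ar1 with 1.63 ± 0.47 (adjusted p = 0.0227). This share stood beside 6.78% of all tested genes called higher, and the median log2 fold change was 1.63 over the 9 genes and -0.02 over all genes. C1qa and C1qb, at 1.67 ± 0.60 and 1.75, missed the threshold in that fit (limma adjusted p = 0.056 and 0.0574). The other C2 entry rose less, with means of 5.61 FPKM in the lesion and 3.86 FPKM in region 3. The C2 entry used had means of 23.4 and 5.24 FPKM.

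The odd region 2 library enters that fit through the shared spread. Without it, 8 of the 9 genes were called higher in the lesion (11.9% of all genes), with C3 the exception at a log2 fold change of 0.84. With the animal as a block 4 were called (C1qa, C1qb, C2 and C3ar1; 8.79% of all genes). In a fit of the 12 cord libraries alone 8 were called (14.1% of all genes), and with the animal as a block in that fit all 9 were called (14.8%), C3 with a limma adjusted p of 0.00161. Over all alternatives the limma adjusted p ranged from 0.000276 to 0.192 for C2 and from 0.00161 to 0.950 for C3.

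Microglial and phagocyte markers moved with these genes. The summed FPKM of the microglial list was 246 to 389 in the lesion against 149 to 198 in region 3, and 5 of its 9 tested genes were called higher. The phagocyte list was at 706 to 1717 against 294 to 395 FPKM, with 7 of 10 tested genes called higher, and 3 of 5 Schwann cell markers were also called higher, at 140 to 196 against 57.5 to 118 FPKM. Of the neuronal markers, 5 of 7 were called lower. Their part in the complement differences was not tested.

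Against the caudal cord, the lesion held more of all 9 genes in 3 animals (1.02 to 2.96 times, 27 of 27 pairs of values) and less in stimulated animal 2 (0.571 to 0.943 times, 9 of 9). None of the 9 genes had non-overlapping groups (1.84% of all genes were higher without overlap). The limma fit called 0 of 9, beside 0.934% of all genes called higher. At an unadjusted p under 0.05 there were 0 of 9, beside 29.0% of all genes in either direction. The log2 fold changes lay between 0.09 and 0.93. Without stimulated animal 2, C2 and C3ar1 were called (limma adjusted p = 0.0345 and 0.0273; 2.87% of all genes), and over all alternatives their limma adjusted p reached 0.710 and 0.665.

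Caudal to the lesion, all 9 genes were higher than rostral to it in all 4 animals (1.37 to 3.04 times, 36 of 36), as were 31.9% of all tested genes. The groups did not overlap for 8 of the 9, against 20.5% of all genes. In the 20-library limma fit 0 of 9 were called, beside 2.77% of all genes called higher. At an unadjusted p under 0.05 there were 0 of 9, beside 24.7% of all genes in either direction. The log2 fold changes were 0.73 to 1.15. Without the odd library C1r and C2 were called (8.19% of all genes), in the 12 cord libraries alone C1qb, C1r, C1s, C2 and C3ar1 were called (13.1%), and with the animal as a block there 7 were called (13.6%), all but C1s and C5ar1. The 2 sides of the lesion also differed in Schwann cell markers, of which 5 of 5 were called higher caudally, while 1 microglial and 1 phagocyte marker were. The sums of the latter 2 lists were still higher caudally without overlap. The microglial sum was at 269 to 294 against 149 to 198 FPKM, and the phagocyte sum at 741 to 886 against 294 to 395 FPKM. The part of these markers was not tested.

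**Figure D2:**
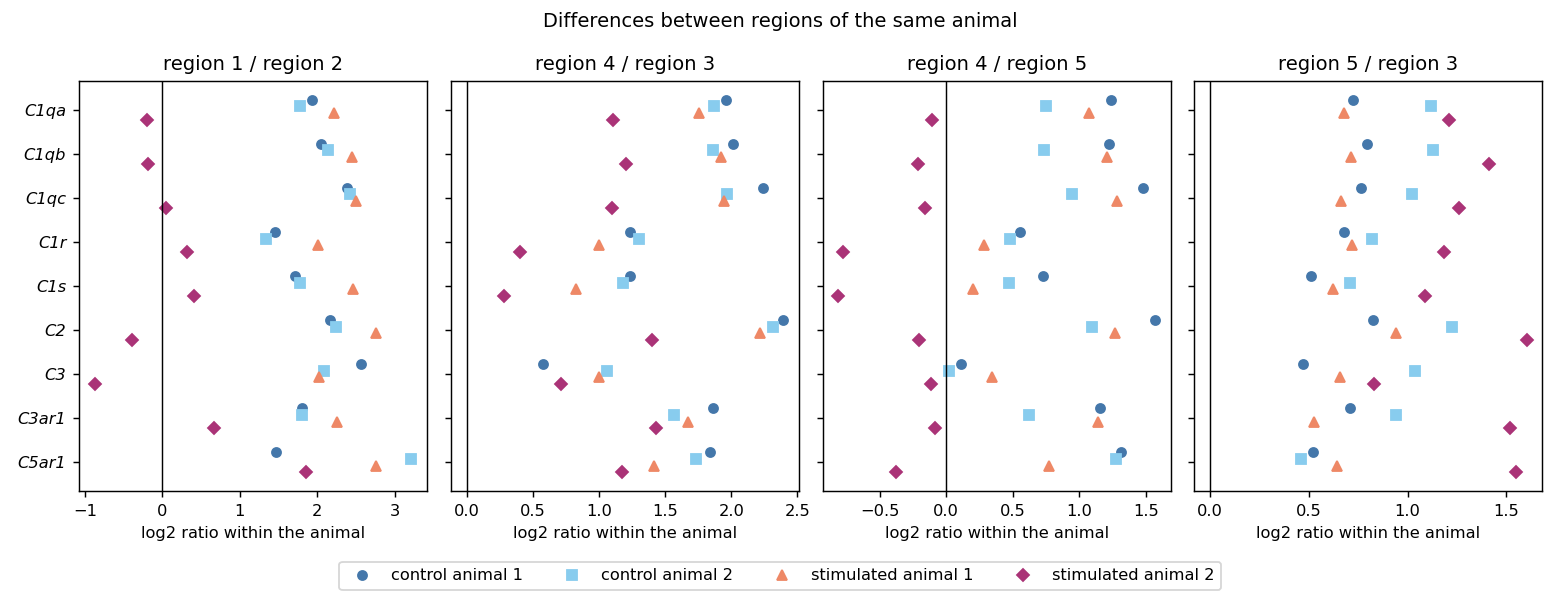
Log2 ratio between 2 regions of the same animal for each gene, with 1 point for each animal and a line at no difference. Ratios of region 4 to 3 and of region 5 to 3 are above 0 in all 4 animals, and ratios of region 4 to 5 are below 0 in stimulated animal 2 only.

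Region 1 was compared with region 2 to set the white matter under the implant against the opposite side. In every animal the implanted side was also the contralesional side, so implant and side of the injury cannot be told apart in this contrast. In the other 3 animals the implanted side held 2.53 to 9.26 times as much of each gene (27 of 27 pairs of values). The highest of these folds, of C5ar1 in control animal 2, was against a value at the floor of 0.1 FPKM and is not exact. The next highest was 6.79. In stimulated animal 2 the implanted side held 0.546 to 3.60 times as much (5 of 9 above 1). In the 20-library limma fit 2 of 9 genes were called higher under the implant, C3ar1 at 1.63 ± 0.47 (adjusted p = 0.0410) and C5ar1 at 2.32 ± 0.70 (adjusted p = 0.0454), beside 6.86% of all genes. C1s was at 1.59 ± 0.50 and C3 at 1.45 ± 1.0 in the same fit (limma adjusted p = 0.0542 and 0.408). The median over the 9 genes was 1.61 and over all genes 0.06. No gene of the 9 had non-overlapping groups when all 4 animals were used (4.4% of all genes were higher without overlap).

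Without the odd library all 9 genes rose on the implanted side, by 1.87 (C1r) to 3.16 (C5ar1) on the log2 scale, with limma adjusted p from 4.9e-05 to 0.00142 and 20% of all genes called higher. C3 was at 2.95 there (limma adjusted p = 0.00142; range over all alternatives 0.000411 to 0.744). With the animal as a block and all libraries, C1r, C1s, C3ar1 and C5ar1 were called (9.63% of all genes), and in the 2 control animals alone 6 of 9 were called (7.37%). The control animals had been implanted but not stimulated. The fit without the odd library kept region 1 of stimulated animal 2, which was also high for all 9 genes. With that animal left out whole, the 9 log2 fold changes were 1.60 (C1r) to 2.48 (C5ar1), and C3 was at 2.23.

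Among the cell markers, phagocyte genes stood with the complement genes on this contrast, at a summed 201 to 378 FPKM in region 1 and 72.5 to 86.6 FPKM in region 2 of the other 3 animals, and 7 of 10 were called higher under the implant in the 20-library fit. The microglial list was at 147 to 203 FPKM in region 1 and 86.6 to 92.8 FPKM in region 2 of those animals, with 0 of 9 called. Fibroblast markers were at 44.8 to 66.8 against 13.6 to 18.5 FPKM, with 6 of 7 called. Oligodendrocyte markers were at 1525 to 2982 against 721 to 1406 FPKM over all 4 animals, with 5 of 7 called higher, and 2 of 8 astrocyte and 2 of 5 Schwann cell markers were called higher. Whether these cell types contributed was not tested.

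The summed C1q level moved more than the microglial markers did. C1q subunits together were at 34.7 to 55.8 FPKM in region 2 of the other 3 animals, a ratio of 0.401 to 0.610 to the microglial sum, and at 604 FPKM in stimulated animal 2, a ratio of 2.52. In region 1 of stimulated animal 2 the C1q sum was 554 FPKM and the ratio 3.24, the highest of the 20 libraries. The cord lay between 0.508 and 1.44. Other marker lists moved with it in that animal. Its phagocyte sum was 1057 FPKM in region 1 and 268 FPKM in region 2, its fibroblast sum was 193 and 58.2 FPKM, and its lymphocyte sum was 32.9 FPKM in region 1 (4.32 to 12.4 in the others) and 22.2 FPKM in region 2 (1.14 to 2.47). The neutrophil and monocyte list was at 114 FPKM in region 1 against 0.650 to 2.04 in the others, nearly all of it from S100a9 (77.4 FPKM) and S100a8 (34.5 FPKM), while Mpo was at 0.1 FPKM and Ngp and Camp at no more than 0.112 and 0.284 FPKM in every white matter library. The part of these markers in the complement levels of that animal was not tested.

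**Figure D3:**
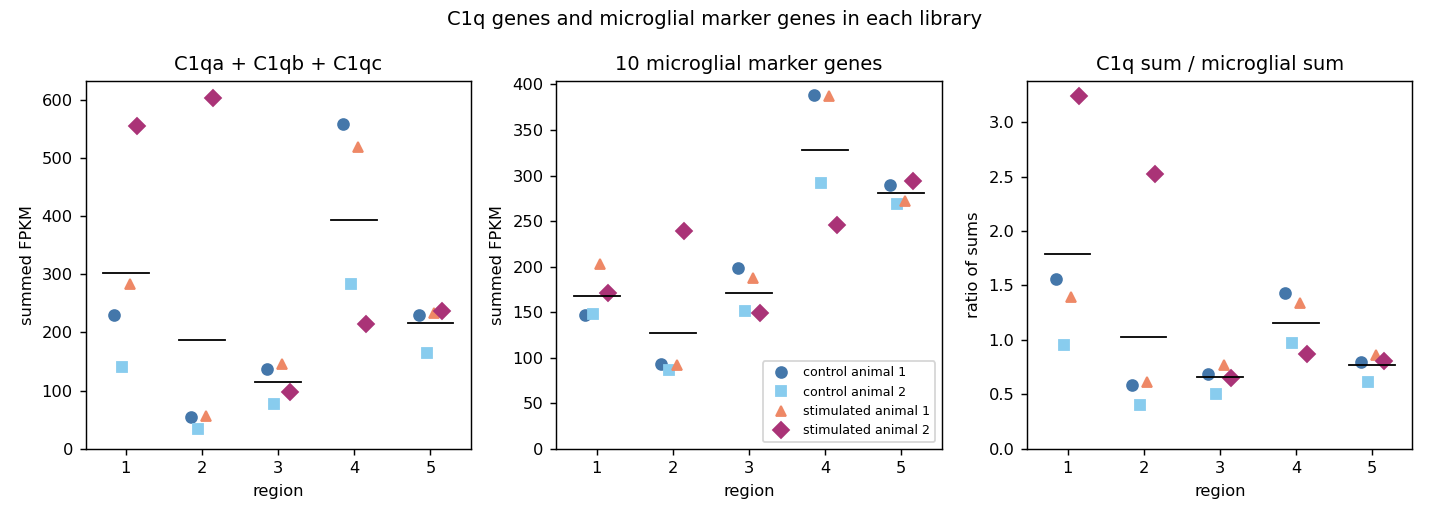
Summed FPKM of the 3 C1q genes, summed FPKM of 10 microglial markers, and the ratio of these sums in every library, with points for animals and bars for the mean of each region. Stimulated animal 2 has ratios of 3.24 and 2.52 in regions 1 and 2, and every other library is at or below 1.56.

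All white matter libraries were also set against all cord libraries. In the limma fit C1s alone of the 9 was lower in white matter, by a log2 fold change of -1.18 ± 0.32 (adjusted p = 0.00294; range over alternatives 1.96e-07 to 0.0461), beside 47.1% of all genes called lower and 25.0% called higher. C3 was at -1.07 ± 0.66 (limma adjusted p = 0.151), and C1qc at 0.10, the one gene of the 9 with a positive value. The median was -0.54 over the 9 genes and -0.18 over all genes. Without the odd library 8 of 9 were called lower, all but C1qc, with 49.8% of all genes, so calls of this kind were common in this contrast. Markers of most cell types were lower there too: 9 of 9 tested microglial, 6 of 10 phagocyte, 6 of 8 astrocyte, 7 of 7 oligodendrocyte and 4 of 5 Schwann cell genes were called lower. Their part was not tested.

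**Figure D4:**
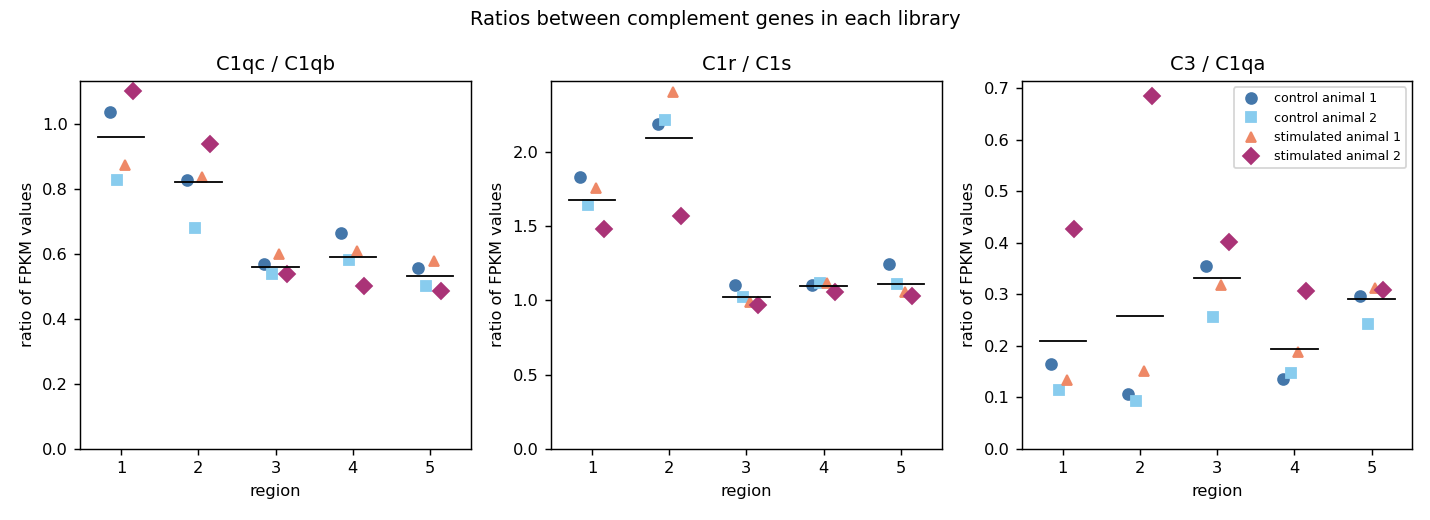
Ratios of C1qc to C1qb, C1r to C1s and C3 to C1qa (FPKM over FPKM) in each library by region, with bars for the region means. The first 2 ratios separate regions 1 and 2 from regions 3 to 5, and the third is highest in region 2 of stimulated animal 2, at 0.685.

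The question the study was built on was whether 1 week of cortical stimulation changed expression in each region. With 2 animals against 2, the smallest two-sided p of an exact permutation test is 0.333, so no single gene could pass 0.05 by that test, and limma fits over all genes were used. In region 1 all 9 genes were higher in the stimulated animals on average, by 0.74 (C1r) to 1.90 (C3) on the log2 scale, and 7 of 9 did not overlap between groups, all but C1r and C1s, against 21.2% of all genes. The limma fit called 0 of 9 (adjusted p = 0.712 for each), beside 0.0% of all genes called higher. At an unadjusted p under 0.05 there were 0 of 9, beside 5.44% of all genes. C1qa was at 1.11 ± 0.41 and C3 at 1.90 ± 1.0 in this fit. Without stimulated animal 2 the 9 values were 0.29 to 0.72. Phagocyte markers also separated the groups in region 1, at 201 to 217 FPKM in the controls and 378 to 1057 FPKM in the stimulated animals. The microglial sum (147 to 148 and 171 to 203 FPKM) and the astrocyte sum (1148 to 1167 and 1517 to 1542 FPKM) did so too. So did the sums of Schwann cell (23.5 to 25.6 and 31.8 to 32.7 FPKM) and red cell markers (3.17 to 6.94 and 8.57 to 9.22 FPKM). The neuronal sum was lower in the stimulated animals, at 995 to 1352 FPKM against 1446 to 1453 FPKM. The part of these markers was not tested.

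In region 2 the log2 fold changes of stimulation were 0.97 to 3.65, the largest being C3 at 3.65 ± 2.0 (limma adjusted p = 0.949). Again 0 of 9 were called, beside 0.0% of all genes. At an unadjusted p under 0.05 there were 0 of 9, beside 1.41% of all genes. Stimulated animal 1 alone gave -0.44 to 0.98 against the controls, 7 of 9 above 0. C1qa, C1qc and C3 did not overlap between groups, and 20.2% of all genes were higher in this way. The difference of the C3 response between regions 1 and 2 was -1.75 ± 1.0 on the log2 scale (limma adjusted p = 0.884; range 0.145 to 1.0), not past the threshold (0.0% of all genes), and -0.30 without stimulated animal 2.

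In the cord the groups lay closer together. Limma called 0 of 9 in each of the 3 regions. Over all genes 0.0%, 0.0% and 0.00657% were called higher, and 0.0%, 0.0% and 0.0131% lower. At an unadjusted p under 0.05 there were 0 of 9 in each region, beside 3.43%, 2.24% and 3.59% of all genes. Log2 fold changes were -0.25 to 0.46 in region 3, -0.74 to 0.50 in the lesion and 0.06 to 0.45 in region 5. Without stimulated animal 2 the values were -0.02 to 0.63, -0.39 to 0.81 and -0.11 to 0.54, and the sign turned for C3ar1 in region 3, for C1qa, C1qb, C1qc and C3ar1 in the lesion, and for C2 and C3ar1 in region 5. With animals numbered alike as a block, 5 of 9 were at an unadjusted p under 0.05 in the lesion, beside 6.21% of all genes, and 0 were called. In the lesion C1r, C1s and C5ar1 were lower in both stimulated animals than in both controls, where 7.69% of all genes were lower without overlap. C1s was the one gene of the 9 without overlap in region 5, where it was higher (18.5% of all genes).

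Another 45 complement genes were listed, of which 43 were in the table and 30 were tested. They are grouped here by role. Among activators, Cfd, the factor D protease of the alternative pathway, rose under the implant by 2.40 ± 0.60 (limma adjusted p = 0.0207) and in the lesion over region 3 by 2.32 (limma adjusted p = 0.0123), with region means of 9.33, 2.51, 1.32, 7.22 and 3.02 FPKM in regions 1 to 5. Fcna, a lectin pathway ficolin, rose in the lesion by 2.00 (limma adjusted p = 0.0108), and Masp1, a lectin pathway protease, under the implant by 0.71 (limma adjusted p = 0.00591). Cfb, factor B, which lies next to C2, never exceeded 0.126 FPKM. The terminal component C9 never exceeded 0.144 FPKM, and C8a and C8b were listed at 0.1 FPKM in every library. C7, another terminal component, was lower in white matter than in cord by a log2 fold change of -2.71 ± 0.25 (limma adjusted p = 1.52e-08).

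Regulators were called in both directions. Cd59, which blocks the membrane attack complex, had region means of 39.6, 36.3, 110, 121 and 155 FPKM and was lower in white matter (log2 fold change -1.75 ± 0.06, limma adjusted p = 1.27e-14). Clu, clusterin, had the highest of the levels named here, with means of 443, 313, 393, 576 and 645 FPKM. Serping1, the C1 inhibitor, rose under the implant by 2.43 ± 0.73 (limma adjusted p = 0.0459). Susd4, a membrane complement inhibitor, was lower in the lesion than in region 3, with a log2 fold change of -0.59 (limma adjusted p = 0.000619), and lower than in region 5, with -0.49 (limma adjusted p = 0.0129). Csmd1 and Csmd3 were also lower in the lesion than in region 3, with log2 fold changes of -0.39 and -0.42 (limma adjusted p = 0.0299 and 0.0208). The C4 genes are near-identical copies and are not described singly.

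Of the receptors, the integrin subunit Itgax of complement receptor 4 had the largest rise of the 30 in the lesion, 3.01 ± 0.57 (limma adjusted p = 0.00152). In region 3 Itgax was at 0.229 and 0.131 FPKM in the controls and 0.261 and 0.200 FPKM in the stimulated animals, near the floor. The lesion held 2.47, 2.00, 1.94 and 0.701 FPKM in the same order, so the size of this rise is uncertain. Under the implant Itgax was at 0.402, 0.437, 0.735 and 2.50 FPKM, in the order control animals 1 and 2, stimulated animals 1 and 2, and in region 2 it was listed at the floor of 0.1 FPKM in the first 3 and at 0.480 FPKM in stimulated animal 2, so no fold is given. Its partner Itgb2 rose in the lesion by 1.88 (limma adjusted p = 0.0204). In all, 6 of 30 were called higher under the implant (6.86% of all genes). In the lesion 4 were called higher and 3 lower than in region 3 (6.78% of all genes called higher and 12.8% lower). Without the odd library these counts were 18 higher under the implant, and 12 higher and 3 lower in the lesion (13.8% of all genes called lower). The median of the 30 was 0.96 under the implant and 0.53 in the lesion, below the medians of the 9 genes. White matter against cord gave 6 higher and 12 lower of the 30, beside 25.0% and 47.1% of all genes. The caudal cord gave 3 higher than the rostral cord (C8g, Cd59 and Vtn), beside 2.77% of all genes called higher. The lesion gave 2 lower than the caudal cord (Cd59 and Susd4), beside 7.06% of all genes called lower. Stimulation gave 0 calls in every region, with 5, 0, 0, 2 and 8 of 30 at an unadjusted p under 0.05 in regions 1 to 5, beside 5.44%, 1.41%, 3.43%, 2.24% and 3.59% of all genes.

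**Figure D5:**
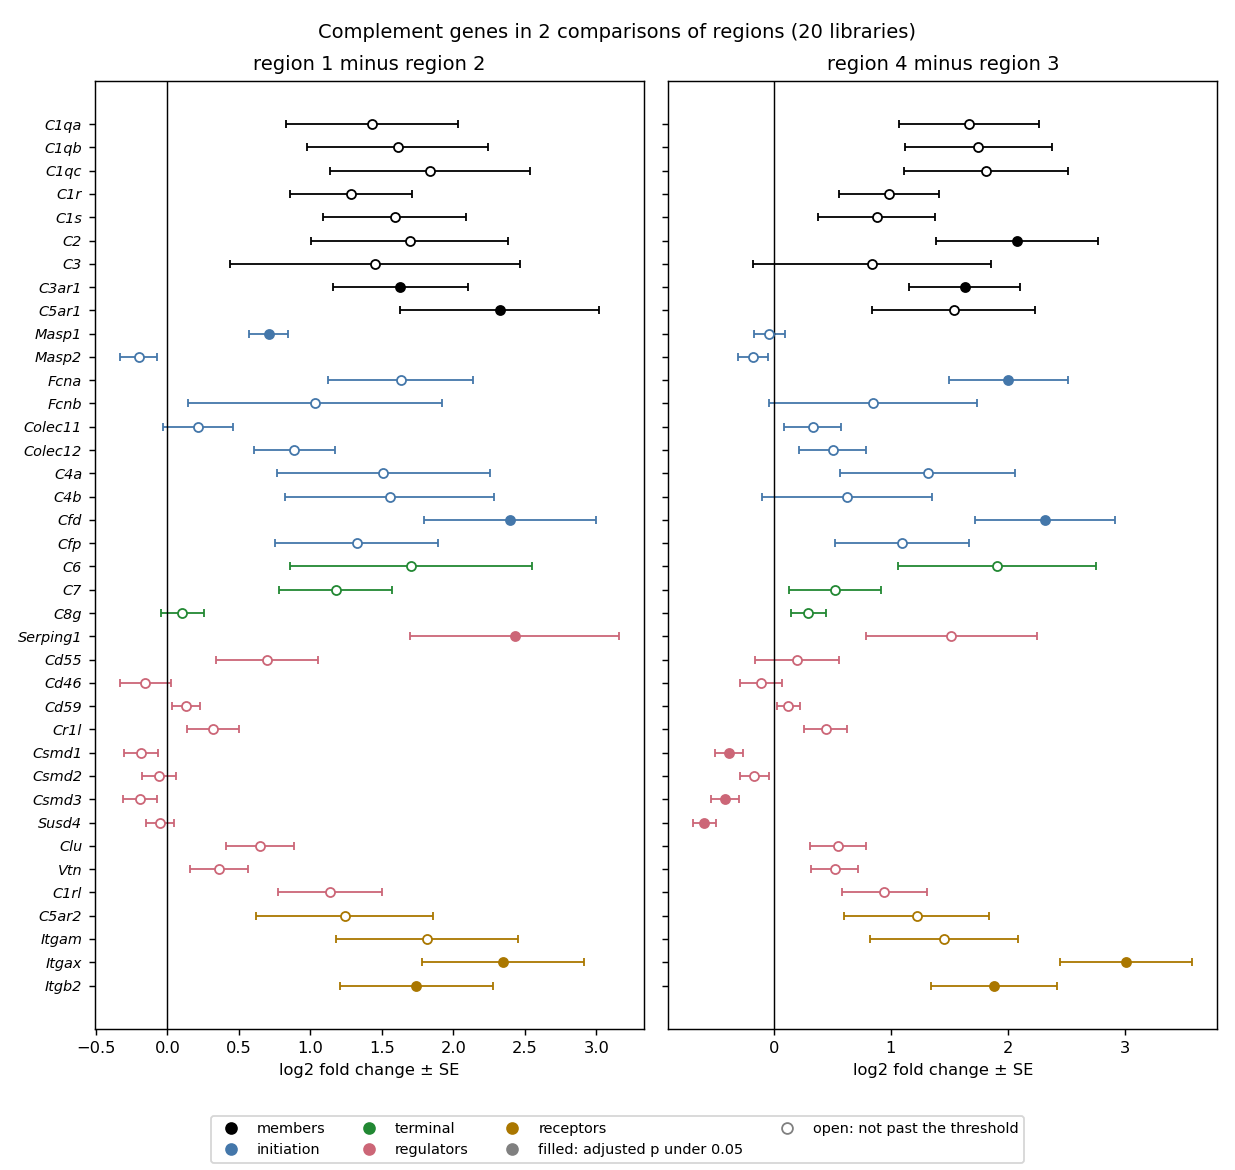
Log2 fold change ± SE from the 20-library fit for the 9 genes and other complement genes tested in region 1 against 2 and region 4 against 3. Filled points passed the threshold: in each comparison 2 of the 9, C3ar1 with C5ar1 and C3ar1 with C2.

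Likeness of pattern was measured as the root mean square difference of log2 FPKM, each gene centred on its mean, over the 20 libraries, which share animals and the odd library. C1qb was nearest to C1qa at 0.149, followed by Unc93b1 at 0.251 and C3ar1 at 0.260, where the median gene was at 1.11. The nearest to C2 was C1qb at 0.218, followed by Vav1 at 0.257. C1qc was nearest to Adgre1, the F4/80 antigen of macrophages, at 0.259. C3ar1 was nearest to Tlr7 at 0.197 and Syk at 0.199, and C1r to Parp14 at 0.169, while C5ar1 was nearest to Dok3 at 0.308. C1s was nearest to Cmtm7 at 0.235 and was at 0.423 from its neighbour C1r. C3 was 0.709 to 0.952 from the other 8 genes. Its nearest 3 genes were RT1-Da at 0.394, RT1-Ba at 0.422 and Cd74 at 0.451, which take part in antigen presentation by MHC class II.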

How the data were processed

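Ribosome-depleted total RNA from 5 regions of 4 rats was sequenced as 20 libraries. The authors aligned reads to Rnor6 with TopHat 2.1.0 and deposited FPKM values from Cufflinks 2.2.1, with values under 0.1 set to 0.1. TopHat was run with default parameters, and the annotation came from earlier work of the authors. Its version and the strand setting of Cufflinks are not given in the sources used here. FPKM keep no read depth, so no counting interval could be given and the log2 FPKM were fitted by limma 3.58.1 under R 4.3.3 (lmFit, then eBayes with a trend) for the 15210 genes with at least 1 FPKM in any library, with Benjamini-Hochberg adjustment and a threshold of 0.05. Regions were compared in all 20 libraries, with 1 mean for each region. Stimulation was compared in the 4 libraries of each region, and responses in regions 1 and 2 through differences within animals. All tests rest on 4 animals. The stimulation fits measure the spread between animals of the same group. The region fits pool the spread of libraries around the region means. They treat libraries of the same animal as separate unless the animal is a block. The block was the animal in comparisons of regions, because the labels tie regions to animals. Animals numbered alike in both groups are different animals. The 9 genes and all lists were chosen with earlier results of these data known. All 9 were named, with region fits; other complement genes were named where called, up to 3 in each direction, or, as levels, at 20 FPKM or above in a region or near the floor. Others were chosen after their values were seen, and 1 gene counted among the 30 is not reported here. Fits were tested on simulated data with 200 genes changed by a log2 value of 2. Of these, 189 were recovered for region 4 against region 3, 190 for region 1 against 2 and 154 for stimulation in region 1. For the difference between regions 1 and 2, 90 were recovered. False calls were 10, 13, 11 and 5 in that order. The simulated noise was drawn separately for each library, without animal effects or an outlying library, so it does not test those features of the data. Alternatives covered the pseudocount, the filter, scaling, trend, block and left-out animals.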

Additional observations from a re-analysis of the deposited data

Results flagged for a closer look

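Dixon's test at the 95% level was applied to each gene in each region, 45 groups in all, and 13 groups had an animal far from the other 3, where chance alone would flag about 1 in 20. Over all 15210 genes the share flagged was 11.7%, 14.0%, 6.61%, 4.3% and 4.5% in regions 1 to 5, and stimulated animal 2 was far above the others for 5.07% of all genes in region 1 and 10.5% in region 2. Of the 13 groups, 9 were region 2 of stimulated animal 2, the highest of its group for C1qa (266 FPKM), C1qb (174), C1qc (163), C1r (15.5), C1s (9.88), C2 (35.6), C3 (182), C3ar1 (3.38) and C5ar1 (2.07). The same animal was also far above the others in region 1 for C3 (99.4 FPKM) and C5ar1 (7.47 FPKM). Control animal 2 was the lowest of its group for C1qc in region 5 (25.9 FPKM) and for C1s in region 3 (4.98 FPKM). Because the 9 genes were measured in the same libraries, these groups are not independent of each other.

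Stimulated and control animals were separated in opposite directions in 2 regions for C1s and C5ar1. C1s was lower in both stimulated animals in the lesion and higher in both in region 5, a difference of -0.90 between the log2 fold changes. C5ar1 was higher in both stimulated animals in region 1 and lower in both in the lesion, a difference of 2.54 on the log2 scale. Of all tested genes, 21.2% were higher without overlap in region 1, 18.5% were higher in region 5 and 7.69% were lower in the lesion. The share of all genes separated in opposite directions in 2 regions was not counted. These differences between regions were not tested.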

How the results depend on the processing

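With only 4 animals, 1 animal decided many of the counts. Of 916 values for single genes among the 9 under the alternatives, 764 kept their direction and side of the threshold, 122 newly passed it, 22 lost it and 8 reversed. These values cover the comparisons of regions and stimulation in region 1, with C3 alone for stimulation in region 2 and for the difference between regions 1 and 2. Other complement genes gave 342 values, of which 285 kept both and 57 lost the threshold. The cause of the changes was not tested, except that leaving animals or regions out changes the samples fitted.

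Among these, the reversed values were C1qc in white matter against cord, at -0.71 without stimulated animal 2, -0.75 in control animals alone, -0.41 without the odd region 2 library and -0.39 without it and with the animal block, C5ar1 in that comparison, at 0.023 with log2(FPKM + 1) and 0.055 without control animal 2, and, without control animal 1, C1r at -0.0047 and C1s at -0.044 in region 4 against 5. Outside them, leaving out stimulated animal 2 turned the sign of stimulation for 2, 1, 4 and 2 of the 9 genes in regions 2 to 5, and of the difference between regions 1 and 2 for 8 of 9, none of them called. With an animal or the odd library left out, these values ranged from -0.71 to 0.38 for C1qc and from -1.23 to 0.055 for C5ar1 in white matter against cord, and up to 0.44 for C1r and 0.47 for C1s in region 4 against 5.

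Counts of called genes moved by more than 1.5 times as follows. For the 9 genes, white matter against cord (1) gave 8 in control animals alone. Region 1 against 2 (2) gave 0 with log2(FPKM + 1) or no filter, 1 with log2(FPKM + 0.1), quantile scaling or no trend, 4 with the animal block and 6 in control animals alone. Over all genes, the 1043 higher calls became 667, 487 (of 30443), 962, 943, 929, 1465 and 1121 in these settings, in the same order. Region 4 against 3 (2) gave 0 with no filter, 1 with no trend, 5 with quantile and 4 with upper-quartile scaling, 4 with the animal block or 10 group means, 7 in control animals alone, 8 in cord libraries alone and 9 with the block there. Over all genes, the 1031 higher calls became 736 (of 30443), 962, 1925, 2116, 1337, 983, 1353, 2152 and 2254 in these settings, in the same order. Region 5 against 3 (0) gave 5 in cord libraries alone and 7 with the block there, where the 422 higher calls over all genes became 1990 and 2066. For the 30 other genes, region 1 against 2 (6) gave 2, 1, 3 and 10 with log2(FPKM + 1), no filter, no trend and control animals alone. Region 4 against 3 (7) gave 11 with either scaling, 17 in control animals alone, 16 without the odd library and with the block, and 18 in cord libraries alone, with or without the block. Region 4 against 5 (2) gave 1 with no filter, either scaling, 10 group means or control animals alone, and 6 in cord libraries alone. Region 5 against 3 (3) gave 0 in control animals alone, 12 in cord libraries alone and 11 with the block there. Stimulation in region 5 (0) gave 2 with animals numbered alike as a block.

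Leaving out an animal or the odd library gave counts of 1 to 9 of the 9 genes for white matter against cord. The counts were 0 to 9 for region 1 against 2, 0 to 8 for region 4 against 3, 0 to 2 for region 4 against 5 and 0 to 5 for region 5 against 3. Of the 30 others, the ranges were 13 to 27, 0 to 19, 1 to 19, 0 to 6 and 0 to 8 for the comparisons of regions in that order. Calls over all genes moved as well. With 1 animal left out, 6099 to 7774 genes were called lower in white matter against cord. Higher calls were 13 to 3291 for region 1 against 2, 133 to 2391 for region 4 against 3 and 0 to 437 for region 4 against 5. For region 5 against 3 they were 36 to 821, and 1246 without the odd library.

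Scaling moved the split of all called genes. Higher and lower calls were 3808 and 7169 for white matter against cord, 5054 and 6018 after quantile scaling, and 4706 and 6607 after upper-quartile scaling. In the same order they were 1043 and 267, 943 and 841, and 1316 and 931 for region 1 against 2. For region 4 against 3 they were 1031 and 1953, 1925 and 2917, and 2116 and 2487. For region 4 against 5 they were 142 and 1074, 195 and 275, and 328 and 299. For region 5 against 3 they were 422 and 235, 435 and 674, and 419 and 750. The median of all genes moved by more than 0.1 with 1 or both scalings in 6 comparisons (white matter -0.18 to -0.04, region 1 against 2 0.06 to -0.05, region 4 against 5 -0.14 to 0.02, region 5 against 3 0.11 to -0.02, stimulation in region 2 0.08 to -0.06, and the difference between regions 1 and 2 -0.13 to -0.0028). None of the values covered above changed sign with either scaling.

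By the design, animals numbered alike in the control and stimulated groups share only a number. Their deviations correlated at -0.21, -0.10, -0.11, 0.32 and -0.16 in regions 1 to 5. Those of the same animal in regions compared correlated at 0.59 for regions 1 and 2, 0.21 for 4 and 3, 0.03 for 4 and 5 and 0.12 for 5 and 3. The replicate block changed no other count of the 9 or the 30 genes by more than 1.5 times, and it moved the calls over all genes from 1216 to 1966 for region 4 against 5 and from 3 to 443 for stimulation in region 5.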
